A study of Homo sapiens with 6 samples.

Results

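The genes described here encode the machinery that folds secretory and membrane proteins in the endoplasmic reticulum (ER), moves them across its membrane and removes the ones that fail to fold. They were taken from a list of 55 gene symbols, and a probe set was counted to a gene when the array annotation gave it that single symbol. By this rule 54 of the 55 genes were measured, on 138 of 54613 probe sets, out of 19775 genes in all. PRDX4P1, whose symbol marks a pseudogene, had no probe set of its own. The list was divided by step into 14 chaperones, 8 measured disulfide enzymes, 13 translocon genes, 11 genes of ER-associated degradation (ERAD) and 3 genes of vesicle retrieval. Outside those steps, 5 genes were grouped as sensors and proteases.

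Plasma cells and the myeloma cells that arise from them secrete large amounts of immunoglobulin, and their ER is adapted to that load. New chains enter through the Sec61 translocon, are bound by chaperones such as the Hsp70 protein BiP, and gain disulfide bonds from protein disulfide isomerases that are reoxidised by ERO1 enzymes. Chains that do not fold are passed back through the membrane by ERAD complexes built around SEL1L and are degraded by the proteasome, the target of carfilzomib. Unfolded protein in the ER activates the sensors IRE1 (ERN1), ATF6 and PERK, which raise transcription of many chaperone and ERAD genes.

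The study compared LP-1/Cfz cells with parental LP-1 cells, a human multiple myeloma line, on Affymetrix HG-U133 Plus 2.0 arrays of total RNA. LP-1/Cfz is a derivative of LP-1 that is resistant to 12 nM carfilzomib, a proteasome inhibitor, and its cells had grown for 1 week without the drug when they were profiled. Parental LP-1 cells had never been selected in carfilzomib, and both were grown in RPMI medium with 4% fetal bovine serum. Each group had 3 arrays. The labels do not say whether LP-1/Cfz is 1 clone or whether the 3 arrays of a group came from separate cultures, so p-values measure the spread between these arrays, which may be technical.

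All values are log2 signals that the authors had centred probe set by probe set on a baseline the sources do not state, so a gene's value is read against the mean of the 3 LP-1 arrays and never against another gene, and no level or detection can be read from it. LP-1/Cfz replicate 3 stood apart from the other arrays. The middle spread of its values over all probe sets (interquartile range) was 0.338 on the log2 scale, against 0.230 to 0.264 on the other 5 arrays, and it was the lowest LP-1/Cfz array for 72.2% of the listed genes (39 of 54) against 47.0% of all genes. Of 10 plasma cell markers, SDC1 (log2 change 0.38) and TNFRSF17 (0.27) were higher and CD38 (-1.07) and SLAMF7 (-2.17) were lower in LP-1/Cfz cells. These passed at an adjusted p under 0.05 in limma, and 6 did not pass. Among markers of other blood and stromal cells 1 of 9 T and NK cell genes was lower, and 0 of 7 measured myeloid and 0 of 7 stromal genes passed in limma (at an unadjusted p under 0.05, 1 myeloid and 0 stromal genes). Over all genes 10.03% were lower and 6.72% higher. The samples are cultures of 1 myeloma line and its derivative, so these markers were not read as counts of other cell types. A bulk array does not tell fewer expressing cells from less RNA per cell.

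The unfolded protein response is known to act through short DNA elements in the promoters of many such genes, and 6 promoters are printed here because they belong to genes whose signal changed and show each kind of element. RefSeq start-site windows (250 bases before to 50 after the start, build GRCh38.p14) were matched for 48 of the 55 genes, the others being DERL1, DERL3, PDIA3, PRDX4P1, SEC24D, SPCS1 and TRAM1. Capitals mark, on either strand, the ER stress response element ERSE (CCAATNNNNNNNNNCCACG) in HSPA5, at chr9:125241294-125241593 on the minus strand, and in CRELD2, at chr22:49918384-49918683 on the plus strand. They mark the shorter ERSE-II (ATTGGNCCACG) in SDF2L1, at chr22:21642052-21642351 on the plus strand, and the XBP1-binding element UPRE (TGACGTGG) in KDELR3, at chr22:38467846-38468145, and SSR4, at chrX:153794418-153794717, both on the plus strand. In SEL1L, at chr14:81533804-81534103 on the minus strand, none of these 3 was found in the window and capitals mark its 5 CCAAT boxes, of which 2 lie end to end.
HSPA5: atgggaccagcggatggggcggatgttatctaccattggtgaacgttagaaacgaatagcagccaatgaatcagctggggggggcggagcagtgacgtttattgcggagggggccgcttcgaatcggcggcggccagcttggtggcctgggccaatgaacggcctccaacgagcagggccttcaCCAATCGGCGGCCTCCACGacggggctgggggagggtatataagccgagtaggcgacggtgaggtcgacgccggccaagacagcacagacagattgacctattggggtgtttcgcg
CRELD2: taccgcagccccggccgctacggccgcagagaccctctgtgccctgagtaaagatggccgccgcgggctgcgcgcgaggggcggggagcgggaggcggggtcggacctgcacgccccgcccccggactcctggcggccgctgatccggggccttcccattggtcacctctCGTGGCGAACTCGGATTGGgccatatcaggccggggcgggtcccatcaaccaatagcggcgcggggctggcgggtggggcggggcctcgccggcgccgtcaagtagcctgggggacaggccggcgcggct
SDF2L1: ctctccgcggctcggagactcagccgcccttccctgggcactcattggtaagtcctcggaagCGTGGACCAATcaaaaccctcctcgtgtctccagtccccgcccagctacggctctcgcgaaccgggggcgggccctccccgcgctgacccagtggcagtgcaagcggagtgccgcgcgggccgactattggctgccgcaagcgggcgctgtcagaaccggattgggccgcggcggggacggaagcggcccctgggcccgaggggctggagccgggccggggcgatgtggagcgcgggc
KDELR3: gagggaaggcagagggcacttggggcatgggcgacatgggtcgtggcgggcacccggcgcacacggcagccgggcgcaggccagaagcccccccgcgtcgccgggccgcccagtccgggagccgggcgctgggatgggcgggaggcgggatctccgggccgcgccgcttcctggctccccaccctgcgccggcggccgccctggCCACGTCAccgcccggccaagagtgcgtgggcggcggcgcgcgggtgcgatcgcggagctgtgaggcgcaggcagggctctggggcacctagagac
SSR4: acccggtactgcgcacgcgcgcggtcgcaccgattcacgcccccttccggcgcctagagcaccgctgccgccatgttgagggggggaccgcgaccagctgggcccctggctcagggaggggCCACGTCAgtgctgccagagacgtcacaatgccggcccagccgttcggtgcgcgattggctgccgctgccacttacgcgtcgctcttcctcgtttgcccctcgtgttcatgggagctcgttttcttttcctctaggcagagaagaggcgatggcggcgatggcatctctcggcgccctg
SEL1L: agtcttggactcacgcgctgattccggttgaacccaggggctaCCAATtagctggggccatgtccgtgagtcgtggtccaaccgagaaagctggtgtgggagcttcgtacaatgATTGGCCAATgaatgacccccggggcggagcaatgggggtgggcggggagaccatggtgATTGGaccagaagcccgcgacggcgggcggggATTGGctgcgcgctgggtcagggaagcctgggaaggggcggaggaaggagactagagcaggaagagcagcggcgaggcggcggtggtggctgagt

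The ERSE letters were found in 7 of the 48 matched genes, 14.6% (CALR, CANX, CRELD2, ERO1B, HSP90B1, HSPA5 and PDIA6). Over all 27305 genes with a window (35116 windows) the share was 0.0916%. Of the 7 listed genes 2 were lower in LP-1/Cfz cells, HSPA5 and CRELD2, and 5 did not pass. Over all measured genes 10.03% were lower and 6.72% higher. ERSE-II was found in HERPUD1, HYOU1 and SDF2L1, 6.25% of the matched genes against 0.0696% of all genes with a window. Of the 3 only SDF2L1 passed, being lower. UPRE was found in DNAJC10, HYOU1, KDELR3, SEC62, SSR3, SSR4 and VCP, 14.6% of the matched genes against 0.927% of all genes with a window. KDELR3 and VCP were lower, SSR4 was higher and 4 did not pass, so genes with the UPRE letters stood on both sides. The CCAAT box is part of ERSE and, read on the other strand, of ERSE-II. It was in 37 of the 48 matched genes (77.1%) and in 39.7% of all genes with a window. A match says that these letters are in the window, not that a factor binds there, and no match says only that they are not in this window.

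The question was which steps of ER protein handling differed between the resistant and the parental cells. Of the 54 measured genes 12 were lower in LP-1/Cfz cells, 4 were higher and 38 did not pass (limma, Benjamini-Hochberg adjusted p under 0.05 over all 19775 genes). That is 22.2% lower and 7.41% higher, beside 10.03 percent lower and 6.72 percent higher over all genes. The list and its steps were chosen with earlier results of these data known, so these and the following shares only describe the list. The genes that fell were HSPA5, DNAJB9, SDF2L1 and CRELD2 among chaperones, ERP29 among disulfide enzymes, TRAM1, TRAM2 and SEC61B in the translocon, SEL1L, SELENOS and VCP in ERAD, and KDELR3 in vesicle retrieval. The genes that rose were the chaperone factors SIL1 and MZB1, the translocon-associated subunit SSR4 and the membrane-bound transcription factor CREB3L2. The median change of the list was -0.08 on the log2 scale (36 genes negative, 18 positive), beside 0.02 over all genes. Without LP-1/Cfz replicate 3 the median was -0.04, beside 0.008 over all genes, and 11 genes were lower and 5 higher.

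The 3 LP-1/Cfz values lay wholly outside the 3 LP-1 values for 34 of the 54 genes, on the lower side for 26 and on the higher side for 8. This share of 63.0% stands beside 35.9 percent of all genes. In a wider list of genes of the same steps, described below, it was 55.1% (102 of 185). Among the 38 genes that did not pass, the groups overlapped for 20. A two-sided exact permutation test of 3 against 3 arrays cannot give a p below 0.1, so single genes were judged in the limma fit alone. Probe set by probe set, 25 of 138 were lower (18.1%) and 10 were higher (7.25%), beside 6.76 percent lower and 4.25 percent higher over all 54613 probe sets. Those 54613 include 11721 probe sets with no gene symbol and 1801 with several, whereas the 138 each carry a single symbol.

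**Figure D1:**
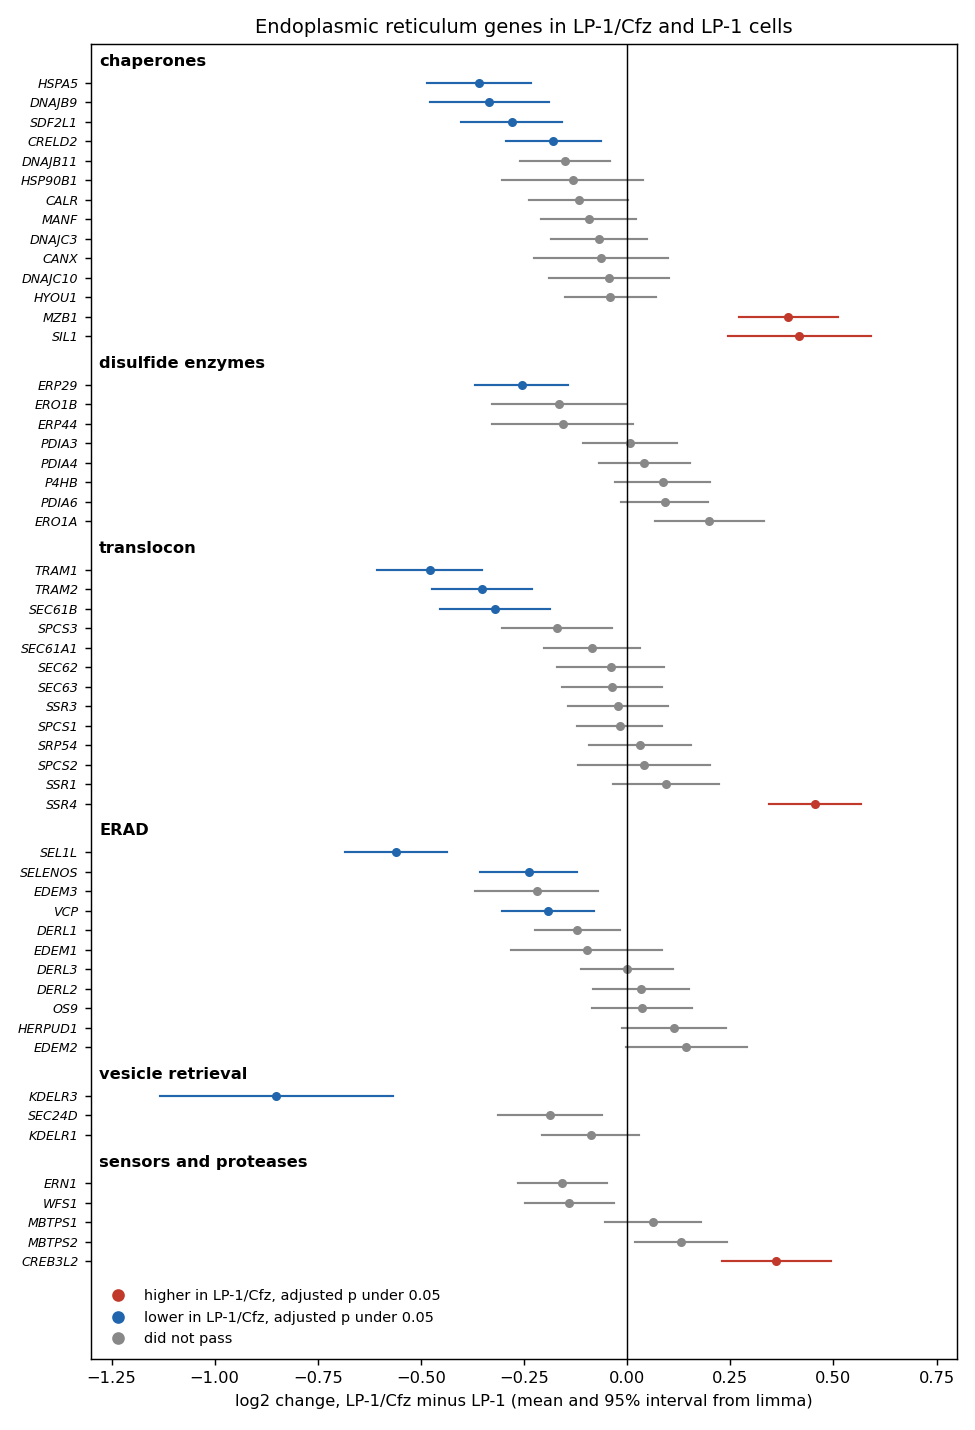
Mean log2 change (LP-1/Cfz minus LP-1, 3 arrays each) of the 54 measured genes with its 95% interval from limma, grouped by step. The 12 genes in blue were lower and the 4 in red higher at an adjusted p under 0.05, and KDELR3 and SEL1L lie farthest to the left.

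Chaperones held 6 of the 16 genes that passed, and BiP itself was among those that fell. Of 14 genes 4 were lower and 2 higher, beside 10.03% lower and 6.72% higher over all genes, and the chaperone median was -0.11. HSPA5, which encodes BiP, stood at -0.31, -0.44 and -0.33 on the 3 LP-1/Cfz arrays, against -0.02, 0.02 and -0.0026 on the 3 LP-1 arrays. All 3 resistant arrays lay below all 3 parental ones, and HSPA5 fell by 0.36 ± 0.05 (SE, n = 3 each, adjusted p = 0.0033 in limma). The 2 probe sets of HSPA5 were far apart in size, with -0.63 on 230031_at (adjusted p = 0.0030) and -0.09 on 211936_at (adjusted p = 0.372). When the probe set with the higher mean stood for the gene, HSPA5 no longer passed, at -0.09 with an adjusted p of 0.336. The values are centred, so here and below a higher mean does not mark the brighter probe set.

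DNAJB9, a co-chaperone of BiP also called ERdj4, stood at -0.31, -0.27 and -0.43 on LP-1/Cfz arrays, against -0.06, 0.07 and -0.01 on LP-1 arrays. The groups did not overlap, and the change was -0.33 ± 0.06 (SE, n = 3 each, adjusted p = 0.0088 in limma). Each of its 3 probe sets was lower, between -0.39 and -0.31. SDF2L1, which works with the co-chaperone DNAJB11, stood at -0.27, -0.29 and -0.29 on LP-1/Cfz arrays, against 0.07, -0.06 and -0.01 on LP-1 arrays. Its resistant arrays were nearly level with each other and all lower, a change of -0.28 ± 0.05 (SE, n = 3 each, adjusted p = 0.0092). CRELD2, an ER-resident protein induced by ER stress, read -0.15, -0.21 and -0.17 on LP-1/Cfz arrays, against 0.02, -0.05 and 0.03 on LP-1 arrays. The groups were apart for CRELD2 too, but the change of -0.18 ± 0.05 was near the threshold (SE, n = 3 each, adjusted p = 0.0446 in limma), and it was past the threshold in none of the 6 fits without 1 array, where adjusted p was 0.0571 to 0.160.

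SIL1 and MZB1 moved the other way. SIL1, the nucleotide exchange factor that resets BiP, stood at 0.44, 0.53 and 0.28 on LP-1/Cfz arrays, against 0.02, -0.07 and 0.05 on LP-1 arrays. It was higher on every resistant array, least on replicate 3, and rose by 0.42 ± 0.07 (SE, n = 3 each, adjusted p = 0.0076 in limma). MZB1, a B-lineage ER protein that aids immunoglobulin assembly and secretion, stood at 0.37, 0.43 and 0.37 on LP-1/Cfz arrays, against 0.05, -0.06 and 0.01 on LP-1 arrays. Both of its probe sets were higher, and MZB1 rose by 0.39 ± 0.05 (SE, n = 3 each, adjusted p = 0.0018). The other 8 chaperones had changes of -0.15 to -0.04, all negative, and none passed. They were DNAJB11, HSP90B1 (GRP94), CALR, MANF, DNAJC3, CANX, DNAJC10 and HYOU1, among them the lectin chaperones calreticulin (CALR, -0.12, adjusted p = 0.171) and calnexin (CANX, -0.06, adjusted p = 0.602).

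**Figure D2:**
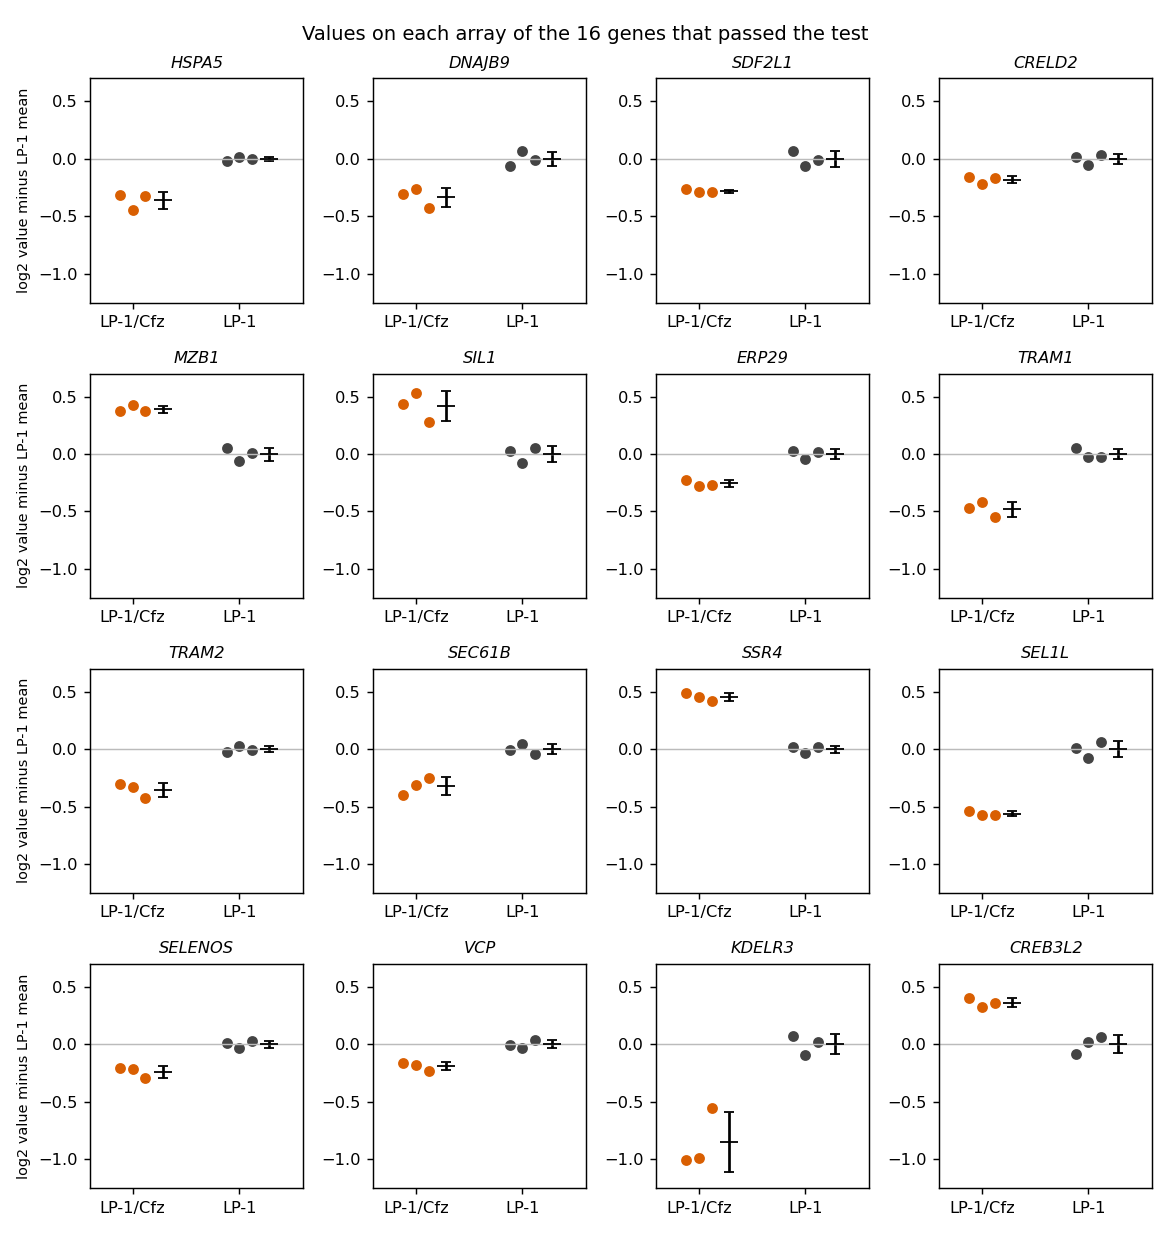
Log2 value of each gene that passed on each array, minus the mean of the LP-1 arrays, with LP-1/Cfz in orange and LP-1 in grey, 3 arrays each, and the mean ± SD beside the points. All 16 genes have separate groups, and KDELR3 has the widest spread among LP-1/Cfz arrays (-1.01, -0.99 and -0.55).

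Among disulfide enzymes ERP29 fell and the other 7 measured genes did not pass, with a median of 0.02 for the 8 (0.01 to 0.04 over the fits without 1 array, lowest without LP-1/Cfz replicate 1 and highest without LP-1/Cfz replicate 3). In limma 0 were higher, and 1 at an unadjusted p under 0.05, beside 6.72% higher over all genes at an adjusted p under 0.05. The 1 gene lower was 12.5% of the 8, near the 10.03% lower over all genes. ERP29, a relative of the protein disulfide isomerases without their paired active-site cysteines, stood at -0.22, -0.27 and -0.27 on LP-1/Cfz arrays, against 0.03, -0.05 and 0.02 on LP-1 arrays. The groups were apart, and ERP29 fell by 0.26 ± 0.05 (SE, n = 3 each, adjusted p = 0.0096 in limma). The 10 nearest measured genes on chromosome 12 had a median of -0.19, and 5 of them were lower. The part of this stretch in the fall of ERP29 was not tested. The isomerases proper stayed near 0, with PDIA3 at 0.01, PDIA4 at 0.04, P4HB at 0.09 and PDIA6 at 0.09, adjusted p 0.233 to 0.952. ERO1A, the oxidase that recharges them, stood at 0.19, 0.27 and 0.13 on LP-1/Cfz arrays, against -0.02, -0.04 and 0.06 on LP-1 arrays, without overlap. Its change of 0.20 ± 0.06 just missed the threshold (SE, n = 3 each, adjusted p = 0.0503), and 1 of its 3 probe sets passed, 222646_s_at at 0.36. ERO1B and ERP44, a further oxidase and a protein that retains such enzymes in the early secretory pathway, had values of -0.17 and -0.16 and did not pass.

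In the translocon TRAM1, TRAM2 and SEC61B fell and SSR4 rose, while the other 9 genes had changes between -0.17 and 0.09. That is 23.1% lower and 7.69% higher, beside 10.03% lower and 6.72% higher over all genes, so the share higher is near that of all genes. The median of the 13 genes was -0.04, and it was -0.06 without LP-1/Cfz replicate 2, -0.01 without LP-1/Cfz replicate 3 and -0.02 without LP-1 replicate 2. TRAM1, a membrane protein beside the channel that helps some chains to enter it, stood at -0.47, -0.42 and -0.55 on LP-1/Cfz arrays, against 0.05, -0.02 and -0.03 on LP-1 arrays. Every resistant array was lower, and TRAM1 fell by 0.48 ± 0.05 (SE, n = 3 each, adjusted p = 0.00093 in limma), with each of 3 probe sets lower (-0.54 to -0.37). Its relative TRAM2 stood at -0.30, -0.33 and -0.42 on LP-1/Cfz arrays, against -0.03, 0.03 and -0.004 on LP-1 arrays. The groups were again apart, the change was -0.35 ± 0.05 (SE, n = 3 each, adjusted p = 0.0032), and 2 of 3 probe sets passed.

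SEC61B, the small beta subunit of the channel, stood at -0.40, -0.31 and -0.25 on LP-1/Cfz arrays, against -0.01, 0.05 and -0.04 on LP-1 arrays. All resistant arrays were lower, and SEC61B fell by 0.32 ± 0.06 (SE, n = 3 each, adjusted p = 0.0076 in limma). Its 2 probe sets differed in size, with -0.61 on 244700_at (adjusted p = 0.0071) and -0.04 on 203133_at (adjusted p = 0.765). With the probe set of higher centred mean, a pick not tied to brightness, in the place of their average, SEC61B did not pass (-0.04, adjusted p = 0.742). The pore subunit SEC61A1 had -0.09 and did not pass (adjusted p = 0.307).

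SSR4, the delta subunit of the translocon-associated protein complex, stood at 0.49, 0.46 and 0.42 on LP-1/Cfz arrays, against 0.02, -0.04 and 0.02 on LP-1 arrays. It was higher on every resistant array and rose by 0.45 ± 0.05 (SE, n = 3 each, adjusted p = 0.00063 in limma). The 10 nearest measured genes on chromosome X had a median of 0.18 and 4 of them were higher, and the part of this stretch in the rise of SSR4 was not tested. Of the same complex, SSR1 had 0.09 (adjusted p = 0.308) and SSR3 had -0.02 (adjusted p = 0.820), and neither passed. Of 6 SSR1 probe sets 225435_at and 226712_at were higher (0.37 and 0.31), whereas of 4 SSR3 probe sets 237817_at was lower (-0.42). The signal recognition particle subunit SRP54 had 0.03, the Sec61 partners SEC62 and SEC63 had -0.04 each, and the signal peptidase subunits SPCS1, SPCS2 and SPCS3 had -0.02, 0.04 and -0.17.

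In ERAD SEL1L, SELENOS and VCP fell and 0 of 11 genes rose (limma, and 0 at an unadjusted p under 0.05). Over all genes 10.03% were lower and 6.72% higher, so 0 of 11 higher does not set ERAD apart. The ERAD median was -0.10, and it was -0.02 without LP-1/Cfz replicate 3. SEL1L, the adaptor of the HRD1 ubiquitin ligase through which luminal and membrane substrates leave the ER, stood at -0.54, -0.57 and -0.57 on LP-1/Cfz arrays, against 0.01, -0.07 and 0.06 on LP-1 arrays. The 3 resistant arrays were close to each other and far below the parental ones, and SEL1L fell by 0.56 ± 0.05 (SE, n = 3 each, adjusted p = 0.00038 in limma). That is a 1.48-fold difference, and each of the 4 probe sets was lower, at -0.64 to -0.46. Its 10 nearest measured genes had a median of -0.06.

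SELENOS, a selenoprotein that tethers VCP to the ER membrane, stood at -0.20, -0.21 and -0.30 on LP-1/Cfz arrays, against 0.01, -0.03 and 0.03 on LP-1 arrays. Its groups were apart and it fell by 0.24 ± 0.05 (SE, n = 3 each, adjusted p = 0.016 in limma), a call that was lost without LP-1 replicate 1 (adjusted p = 0.0658) or LP-1 replicate 3 (adjusted p = 0.0739). VCP, the ATPase that pulls substrates from the membrane, stood at -0.17, -0.18 and -0.23 on LP-1/Cfz arrays, against -0.0027, -0.03 and 0.03 on LP-1 arrays. Its resistant arrays were all lower, but the change was small, -0.19 ± 0.05 (SE, n = 3 each, adjusted p = 0.032), neither of its 2 probe sets passed alone, and it missed the threshold in each of the 6 fits without 1 array (adjusted p 0.0525 to 0.129). The other 8 genes did not pass. EDEM3, a mannosidase that marks glycoproteins for disposal, was nearest at -0.22 (adjusted p = 0.0556), its relatives EDEM1 and EDEM2 had -0.10 and 0.14, and the channel proteins DERL1, DERL2 and DERL3 had -0.12, 0.03 and -0.0008. The lectin OS9 had 0.04 and HERPUD1, which scaffolds the HRD1 complex, had 0.11.

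**Figure D3:**
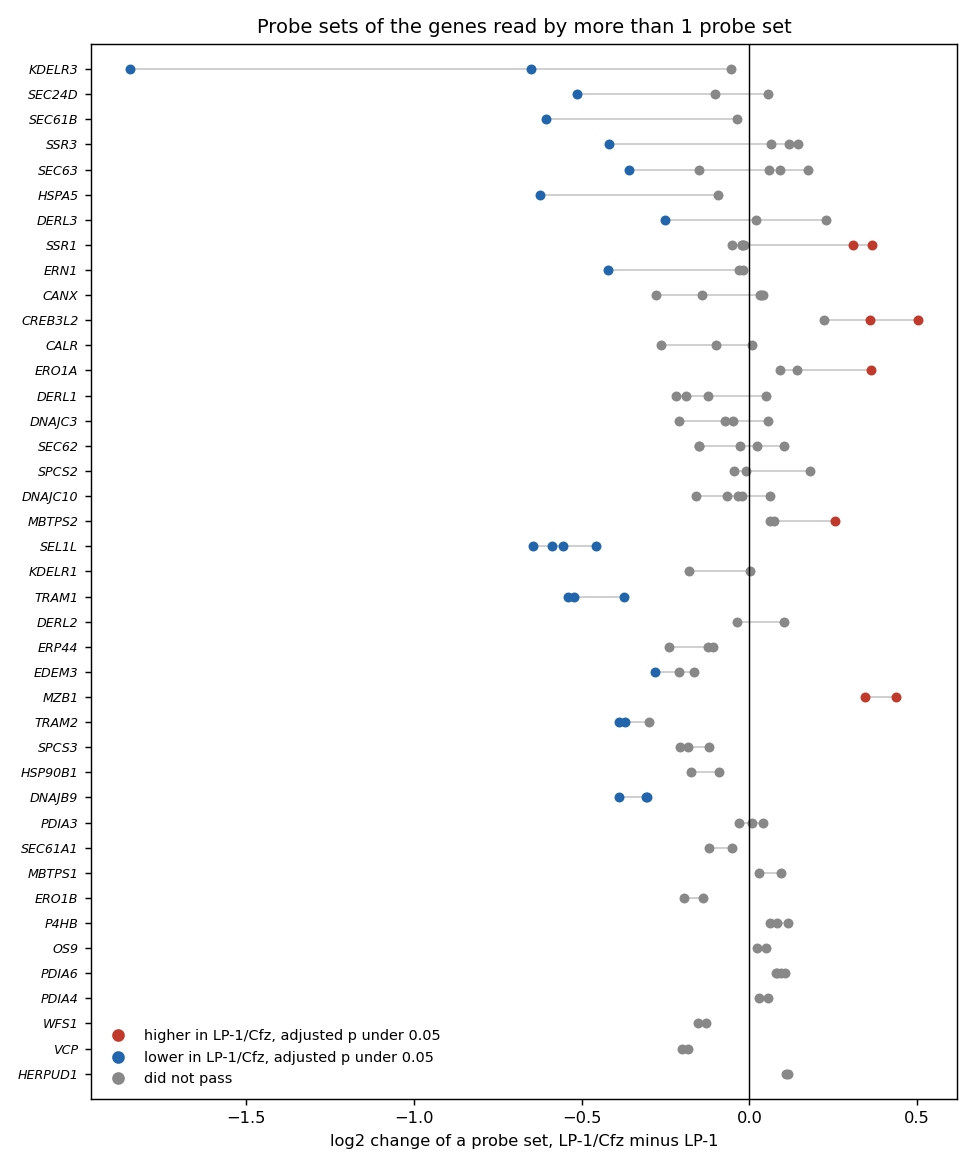
Log2 change (LP-1/Cfz minus LP-1) of each probe set of the 41 genes read by more than 1 probe set, widest span at the top, coloured by the limma call over all probe sets. KDELR3 spans -1.85 to -0.05, whereas the 4 SEL1L probe sets all lie between -0.64 and -0.46.

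The probe sets of a gene did not always move together. Of the 54 genes 41 had more than 1 probe set, and in 0 of them did 2 probe sets pass in opposite directions in limma (3 genes at an unadjusted p under 0.05). Of the 16 genes that passed, 10 had more than 1 probe set, and for 4 of these (DNAJB9, MZB1, TRAM1 and SEL1L) each probe set passed. In 2 genes, HSPA5 and SEC61B, a single probe set passed. A further 9 genes did not pass although at least 1 of their probe sets did. Such probe sets were lower in SEC63 (229969_at, -0.36), SEC24D (215209_at, -0.51), DERL3 (228897_at, -0.25), SSR3, EDEM3 and ERN1. They were higher in ERO1A, SSR1 and MBTPS2. SEC63, SSR3 and DERL3 also had a probe set of positive sign that did not pass (201916_s_at, 0.18, 222412_s_at, 0.15, and 229719_s_at, 0.23). Array values do not show whether such probe sets read different transcripts of the gene, and this was not tested.

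The largest change of the list was in vesicle retrieval. KDELR3, a receptor that returns proteins with a KDEL-like tail from the Golgi to the ER, stood at -1.01, -0.99 and -0.55 on LP-1/Cfz arrays, against 0.07, -0.10 and 0.02 on LP-1 arrays. All resistant arrays were lower, replicate 3 least so, and the change was -0.85 ± 0.12 (SE, n = 3 each, adjusted p = 0.0027 in limma), a 1.80-fold difference. It rested on 2 of 3 probe sets, 204017_at at -1.85 (adjusted p = 0.0031) and 207265_s_at at -0.65 (adjusted p = 0.032), while 207264_at had -0.05 (adjusted p = 0.728). The last of these had the highest mean of the centred values, which is not tied to brightness. Standing for the gene, this probe set gave no call for KDELR3 (adjusted p = 0.711). Its paralog KDELR1 had -0.09 (adjusted p = 0.298) and SEC24D, a cargo adaptor of COPII vesicles, had -0.19 (adjusted p = 0.0546), so of the 3 genes 1 was lower. Beside this, 10.03% of all genes were lower and 6.72% higher, and 3 genes are too few to describe the step.

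Among the 5 genes grouped as sensors and proteases 1 was higher and 0 lower in limma (2 lower at an unadjusted p under 0.05). Over all genes 6.72% were higher and 10.03% lower, so 0 of 5 lower does not set this group apart. CREB3L2, a membrane-bound transcription factor of the secretory pathway released by proteolysis, stood at 0.40, 0.33 and 0.36 on LP-1/Cfz arrays, against -0.09, 0.02 and 0.07 on LP-1 arrays. It was higher on every resistant array and rose by 0.36 ± 0.06 (SE, n = 3 each, adjusted p = 0.0043), with 2 of 3 probe sets higher. ERN1, the sensor IRE1, stood at -0.17, -0.14 and -0.16 on LP-1/Cfz arrays, against -0.02, -0.02 and 0.04 on LP-1 arrays. Its groups were apart but it just missed the threshold, at -0.16 ± 0.05 (SE, n = 3 each, adjusted p = 0.0568), and 1 of its 3 probe sets was lower (235745_at, -0.42, adjusted p = 0.0062). WFS1, a membrane protein of the ER, had -0.14, and the site-1 and site-2 proteases that release such factors, MBTPS1 and MBTPS2, had 0.06 and 0.13. None of the 3 passed at the gene level, but 1 of 3 MBTPS2 probe sets was higher (226760_at, 0.26, adjusted p = 0.0316 in limma).

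SIL1 and MZB1, both higher, lay near each other on chromosome 5 with 5 measured genes between them, which both count among their neighbours. The 10 nearest measured genes of each had a median of 0.002, with 1 higher and 1 lower beside SIL1 and 2 higher and 1 lower beside MZB1. Other pairs of genes that passed on the same chromosome lay farther apart. SEC61B and ERP44, of which ERP44 did not pass, had 3 measured genes between them. Apart from ERP29 and SSR4, the medians of the 10 nearest measured genes lay between -0.06 and 0.09 for the genes that passed. KDELR3 had 5 changed neighbours, 2 higher and 3 lower.

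Other genes of the same steps were read from a wider list of 199 genes, written from general knowledge but with earlier results of these data known. Of these 185 were measured. There, 23 were lower and 19 higher, 12.4% and 10.3%, with a median of 0.005, beside 10.03% lower, 6.72% higher and a median of 0.02 over all genes. By step, 6 of 25 further chaperones were lower and 1 higher, 3 of 21 disulfide enzymes lower and 4 higher, 1 of 27 translocon genes lower and 1 higher, 4 of 41 ERAD genes lower and 3 higher, 4 of 44 vesicle genes lower and 8 higher, and 5 of 27 sensor and stress genes lower and 2 higher. Whether the listed and the wider genes differed was not tested.

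The largest falls of the wider list were in ATP2A3, EMC10, FKBP11, SEC24C and TRIB3. ATP2A3, the calcium pump SERCA3, stood at -1.58, -1.56 and -1.38 on LP-1/Cfz arrays, against 0.01, -0.04 and 0.03 on LP-1 arrays, a change of -1.50 ± 0.06 (SE, n = 3 each, adjusted p = 7.4e-06 in limma). All resistant arrays were far below the parental ones, and 4 of 5 ATP2A3 probe sets were lower, while 230453_s_at had 0.0069. EMC10, a subunit of the membrane insertase EMC, had -0.56, -1.17 and -0.53 on LP-1/Cfz arrays, against 0.09, -0.0024 and -0.09 on LP-1 arrays, a change of -0.75 ± 0.16 with replicate 2 lowest (adjusted p = 0.017) that did not pass without LP-1 replicate 1 (0.0610) or 2 (0.0587). With the probe set of highest centred mean, again not tied to brightness, EMC10 had -0.25 and ATP2A3 had 0.0069, and neither passed (adjusted p = 0.363 and 0.969). FKBP11, a peptidyl-prolyl isomerase of secretory cells, changed by -0.55 ± 0.05, the COPII adaptor SEC24C by -0.49 ± 0.06 and the pseudokinase TRIB3, a target of ATF4, by -0.44 ± 0.06, each without overlap of the groups (SE, n = 3 each, adjusted p 0.00023 to 0.0015 in limma).

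The largest rises of the wider list were in MMGT1, VKORC1, SELENOM, ERGIC1 and FAM8A1. MMGT1, a further EMC subunit, stood at 0.59, 0.56 and 0.51 on LP-1/Cfz arrays, against -0.08, 0.04 and 0.04 on LP-1 arrays, and rose by 0.55 ± 0.05 (SE, n = 3 each, adjusted p = 0.00045 in limma). The groups were wide apart for MMGT1, whereas EMC10 of the same complex was lower. The vitamin K epoxide reductase VKORC1 rose by 0.48 ± 0.05, the thioredoxin-like selenoprotein SELENOM by 0.46 ± 0.07, the ER-Golgi protein ERGIC1 by 0.44 ± 0.06 and the HRD1 cofactor FAM8A1 by 0.40 ± 0.05 (SE, n = 3 each, adjusted p 0.00056 to 0.0031). With the probe set of highest centred mean, a pick not tied to brightness, in the place of the average, ERGIC1 had 0.12 and did not pass (adjusted p = 0.333). PRDX4, the ER peroxiredoxin, whose symbol is that of the unmeasured PRDX4P1 without its pseudogene ending, rose by 0.26 ± 0.05 (SE, n = 3 each, adjusted p = 0.011).

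Among XBP1, PERK and ATF6, only ATF6 passed at the gene level, near the threshold. XBP1, the transcription factor made active when IRE1 splices its mRNA, had 0.07 ± 0.06 (SE, n = 3 each, adjusted p = 0.528 in limma). That value averages probe sets of opposite sign, 0.33 on 200670_at and -0.20 on 242021_at, so it does not show that XBP1 was unchanged. PERK (EIF2AK3) had 0.04 ± 0.05 (adjusted p = 0.637). ATF6 stood at 0.22, 0.19 and 0.12 on LP-1/Cfz arrays, against 0.0010, -0.01 and 0.01 on LP-1 arrays, a change of 0.18 ± 0.05 (adjusted p = 0.044), and this call was kept in 2 of 13 alternative settings. Of the 6 fits without 1 array it passed in the one without LP-1/Cfz replicate 3, and in the others adjusted p was 0.103 to 0.129. Spliced and unspliced XBP1 mRNA were not separated.

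**Figure D4:**
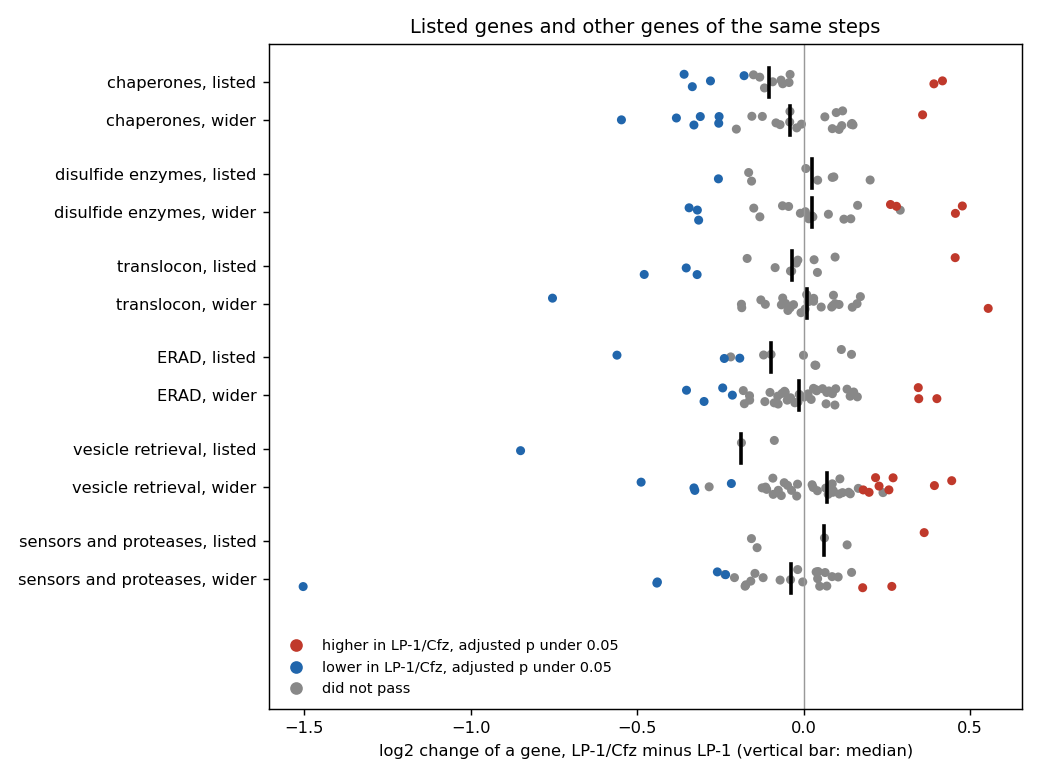
Log2 change (LP-1/Cfz minus LP-1, 3 arrays each) of every measured gene of the list and of the wider list by step, coloured by the limma call, with the median as a black bar. Listed chaperones have a median of -0.11 and the wider chaperones -0.04, and ATP2A3 at -1.50 lies farthest to the left.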

How the data were processed

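LP-1/Cfz and LP-1 cells were each profiled on 3 HG-U133 Plus 2.0 arrays. The deposited log2 values were made by the authors with RMA (version not given), which corrects the background, quantile normalizes and summarizes the probes of a set, and were then centred per probe set on an unstated baseline. Absolute levels cannot be recovered, so neither cell identity nor detection could be checked from levels, and the number of arrays limits the precision.

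Of 54613 probe sets 41091 carried 1 gene symbol in the platform annotation, 1801 several and 11721 none, and 41037 of the single-gene ones matched RefSeq. Single-gene probe sets were averaged per gene (19775 genes) and fitted with limma 3.58.1 in R 4.3.3 (lmFit, eBayes), without a block or covariate, since the paper gives no model. P-values were two-sided and adjusted by Benjamini-Hochberg over all genes, or over all probe sets in a separate fit. The fit was tested on simulated data. Groups were taken from the sample titles, and 0 pairs of arrays were identical. The members, steps and lists were chosen with earlier results of these data known.

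Described in full were HSPA5, SEL1L, DNAJB9 and ERN1, up to 4 genes per step and direction that passed with separate groups, XBP1, ATF6 and EIF2AK3, and the 5 largest changes per direction of the wider list. PRDX4, a few genes near the threshold and the probe sets named for genes that did not pass were chosen after their values were seen. Motifs were searched in RefSeq promoter windows with Python 3.11.15. Alternatives changed the gene summary, normalization, array weights, minimum fold change, replicate block and arrays used.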

Additional observations from a re-analysis of the deposited data

Results flagged for a closer look

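The probe set 216531_at names both YY2 and MBTPS2 and was therefore counted to no gene above, only among all 54613 probe sets. It was higher in LP-1/Cfz cells by 0.298 on the log2 scale (adjusted p = 0.0254 in limma over all probe sets), with 0.34, 0.31 and 0.25 on the 3 LP-1/Cfz arrays and -0.07, -0.01 and 0.08 on the 3 LP-1 arrays, so that the groups did not overlap. It was 1 of 3 probe sets that name a listed gene together with another gene, and the other two (HSP90B1 with MIR3652) did not pass, at -0.14 and -0.08.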

How the results depend on the processing

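Fits without 1 array each gave 4 to 5 listed genes higher and 9 to 11 lower, listed probe sets 5 to 10 higher and 12 to 19 lower, and wider-list genes 11 to 24 higher and 15 to 23 lower. The median of the listed genes ran from -0.0963 to -0.0406 and that of ERAD from -0.119 to -0.0201, both highest without LP-1/Cfz replicate 3. The fewest listed probe sets passed without LP-1 replicate 1 (5 higher, 12 lower). Wider-list genes were fewest without LP-1 replicate 3 (11 higher) and LP-1 replicate 1 (15 lower).

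When the probe set with the highest mean stood for each gene, a choice that centred values do not tie to brightness, the medians were -0.0358 for the list, -0.0363 for ERAD and 0.0027 for vesicle retrieval, XBP1 was at -0.196 and ATP2A3 at 0.0069, and HSPA5, SEC61B, KDELR3, ERGIC1 and EMC10 did not pass. The cause was not tested. Without probe sets whose names end in _s_at, _x_at or _a_at the median of the chaperones was -0.151, and with array weights 29 wider-list genes were higher. Tested in limma against a fold change of 1.2, listed genes gave 0 higher and 2 lower (3 and 3 at an unadjusted p under 0.05), listed probe sets 0 and 3 (4 and 13 unadjusted), and wider-list genes 2 and 2, while a fold change of 1.7 with no test left 0 probe sets higher and 1 lower. ERN1 passed with array weights (adjusted p = 0.0304) and with the median of its probe sets (adjusted p = 0.0221), and VCP was at -0.05 after a further quantile normalization (adjusted p = 0.484).

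Same-numbered arrays of the groups deviated together with correlations of -0.07, 0.12 and -0.02, so the numbers were not taken as pairs. With a replicate block 4 listed genes were higher and 10 lower, and of the listed genes described in full CRELD2 (adjusted p = 0.0882) and VCP (adjusted p = 0.0857) did not pass. CRELD2 and VCP each missed the threshold in 10 of 13 alternatives.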
